A study of Mus musculus with 6 samples.

Results

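The genes described here are the 38 that encode the folding and disposal machinery of the endoplasmic reticulum (ER) and the sensors that control it, out of 21912 gene symbols in the mRNA table. They were listed by name, with no threshold on a measured value but with earlier results of these data known, and all 38 were found in the table: 4 sensors and transducers, 16 chaperones and folding helpers, 7 enzymes of disulfide bond formation and 11 genes of ER-associated degradation (ERAD). The series holds 6 RNA-seq libraries of mouse macrophages, 3 named control (C) and 3 named M, and is about macrophages made into foam cells with oxidised low-density lipoprotein (ox-LDL). Only the C libraries are called control, and M is read here as the group exposed to ox-LDL. That reading is uncertain, because the extraction protocol describes the cells of all 6 libraries as ox-LDL induced. The sources used here do not give the strain, the age, the dose, the time or the origin of the cells.

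Proteins that enter the ER are folded by chaperones of the HSP70 and HSP90 families and by the lectins calnexin and calreticulin, and their disulfide bonds are made and shuffled by protein disulfide isomerases that the ERO1 oxidases recharge. Proteins that fail to fold are drawn back through the membrane by the HRD1 complex and destroyed by the proteasome, which is the ERAD route. When unfolded protein builds up, the sensors IRE1, PERK and ATF6 start the unfolded protein response, in which ATF6 and spliced XBP1 switch on chaperone and ERAD genes and PERK slows translation and raises ATF4. Macrophages depend on this system for secretion and receptor traffic, and cholesterol loading of the ER membrane is a known trigger of it.

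ATF6 and XBP1 act on promoters through the ER stress element (ERSE), which reads CCAAT, then 9 bases of any kind, then CCACG, and whose CCAAT part binds the factor NF-Y, or through the shorter ERSE-II, which reads ATTGG, then 1 base of any kind, then CCACG. These letters were searched on both strands of RefSeq promoters of build GRCm38.p6, each running from 250 bases before to 50 bases after the gene start. Of the 38 genes, 33 matched a promoter entry by symbol or older symbol, all but Atf6, Hyou1, Sil1, Manf and Derl1. An ERSE was found in 10 of these 33 (30.3%), against 37 of the 27025 genes with a promoter (0.137%). An ERSE-II was found in 2 of the 33 (Herpud1 and Dnajb11), against 12 of 27025 genes (0.0444%), and no gene of the 33 held both. Many of these genes are known as targets of the unfolded protein response, so the match describes the list and is not independent of how it was drawn up. The XBP1 element TGACGTGG (0.714% of genes) and the C/EBP-ATF element TGATGCAAT (0.222%) were in 0 of the 33 promoters, which says only that these letters are not in these windows.

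The matched elements are shown with 15 flanking bases on each side (8 for Dnajb11), 5′ to 3′ on the strand of the gene, because the results below return to the genes that carry them. Capitals mark the element, and elements that start with CGTGG lie on the opposite strand.
Hspa5 (chr2:34772010-34772058, + strand): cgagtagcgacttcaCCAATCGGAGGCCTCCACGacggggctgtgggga
Hsp90b1, distal (chr10:86705623-86705671, - strand): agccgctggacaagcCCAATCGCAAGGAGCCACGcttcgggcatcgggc
Hsp90b1, proximal (chr10:86705518-86705566, - strand): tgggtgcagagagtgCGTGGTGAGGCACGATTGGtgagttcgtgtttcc
Calr (chr8:84847060-84847108, - strand): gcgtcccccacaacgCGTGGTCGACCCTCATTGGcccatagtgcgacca
Canx (chr11:50325785-50325833, - strand): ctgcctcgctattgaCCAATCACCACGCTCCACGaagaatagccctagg
Creld2 (chr15:88819505-88819553, + strand): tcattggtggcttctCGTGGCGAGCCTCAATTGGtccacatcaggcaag
Dnajc3 (chr14:118937812-118937860, + strand): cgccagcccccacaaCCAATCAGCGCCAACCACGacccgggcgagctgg
Pdia6 (chr12:17266476-17266524, + strand): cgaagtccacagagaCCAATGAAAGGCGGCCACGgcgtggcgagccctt
Ero1lb (chr13:12565667-12565715, + strand): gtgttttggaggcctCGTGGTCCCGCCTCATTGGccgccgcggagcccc
Syvn1 (chr19:6046517-6046565, + strand): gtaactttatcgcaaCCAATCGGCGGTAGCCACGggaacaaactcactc
Derl3 (chr10:75893227-75893275, + strand): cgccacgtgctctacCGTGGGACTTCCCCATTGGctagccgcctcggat
Herpud1, ERSE-II (chr8:94386362-94386402, + strand): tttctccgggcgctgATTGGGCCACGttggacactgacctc
Dnajb11, ERSE-II (chr16:22857844-22857870, + strand): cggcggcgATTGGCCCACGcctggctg

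The authors deposited FPKM per transcript (fragments scaled by transcript length and by mapped fragments). Transcripts of a symbol were summed, and genes averaging at least 1 FPKM were tested as log2(FPKM + 1) with limma. A gene was called at an adjusted p under 0.05 over all 10390 genes tested. Summed values were 375467 to 390581 FPKM per library, and no read counts are given. Steps among low values put the relative depth at 0.878 to 1.03 of control 1, a rough figure that rests on 10 to 22 transcripts per library. Of 10 macrophage markers in the table, 9 averaged at least 1 FPKM, and the 10 summed to 5848 to 6268 FPKM in control and 7578 to 7866 in M. Lyz2 made up most of this, at 4401 to 4799 FPKM in control and 5874 to 6203 in M. Adgre1, Csf1r, Cd68, Cd14 and Itgam were also higher in every M library, and Fcgr1, Mertk, Mrc1 and Spi1 overlapped. Plasma cells, a cell type rich in ER, were represented by 5 of 8 listed markers, the others being absent from the table. Those 5 summed to 6.93 to 8.45 FPKM in control and 4.64 to 5.18 in M. Nearly all of that sum was Sdc1, at 4.99, 6.47 and 4.99 FPKM in control and 3.02, 3.81 and 3.52 in M, and Tnfrsf17, at 1.56 to 1.75 and 1.20 to 1.57, so it was lower in M, as were the called chaperones. Of the other plasma cell markers, Jchain and Mzb1 stayed at or under 0.421 FPKM in every library. Prdm1 was at 0 in every control library and at or under 0.0269 FPKM in M. Markers of dendritic cells summed to 2.56 to 3.44 FPKM in control and 1.59 to 2.05 in M. The lower sum was mostly Siglech, at 0.777 to 1.57 in control and 0.147 to 0.198 in M. Zbtb46, the only dendritic cell marker to average at least 1 FPKM, overlapped, at 1.63 to 1.85 and 1.37 to 1.85. Markers of neutrophils summed to 0 to 0.191 FPKM in control and 0.541 to 0.870 in M. The neutrophil sum was mostly S100a8, at 0, 0 and 0.191 FPKM in control and 0.470, 0.607 and 0.791 in M, Elane was above 0 only in M 1 and M 3, and S100a9, Ly6g, Mpo and Ngp were listed at 0. The part of these cells in the results was not tested. In bulk RNA, fewer cells that express a gene and less RNA per cell cannot be told apart, and since the labels name no separate cultures or animals, the spread that the p-values rest on may be technical.

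Of the 38 genes, 37 passed the filter and 19 of these (51.4%) were called, 7 higher and 12 lower in M. Over all genes tested, 43.1% were called, 21.2% higher and 21.9% lower, so the share called was near that of the table. By role, chaperones were called in 0 cases higher and 7 lower of 16, disulfide enzymes in 1 and 3 of 7, ERAD genes in 4 and 0 of 10, and sensors in 2 and 2 of 4. The median log2 fold change (M minus control on the log2(FPKM + 1) scale) was -0.15 for chaperones, -0.14 for disulfide enzymes, 0.16 for ERAD genes and 0.085 for sensors, beside -0.0057 for all genes tested. The groups did not overlap in 26 of the 37 genes, with M above in 11 and below in 15, where the table had 55.7% (27.6% above, 28.1% below). All changes were below 2-fold, the range of log2 fold changes being -0.71 (Sdf2l1) to 0.77 (Ero1l).

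**Figure D1:**
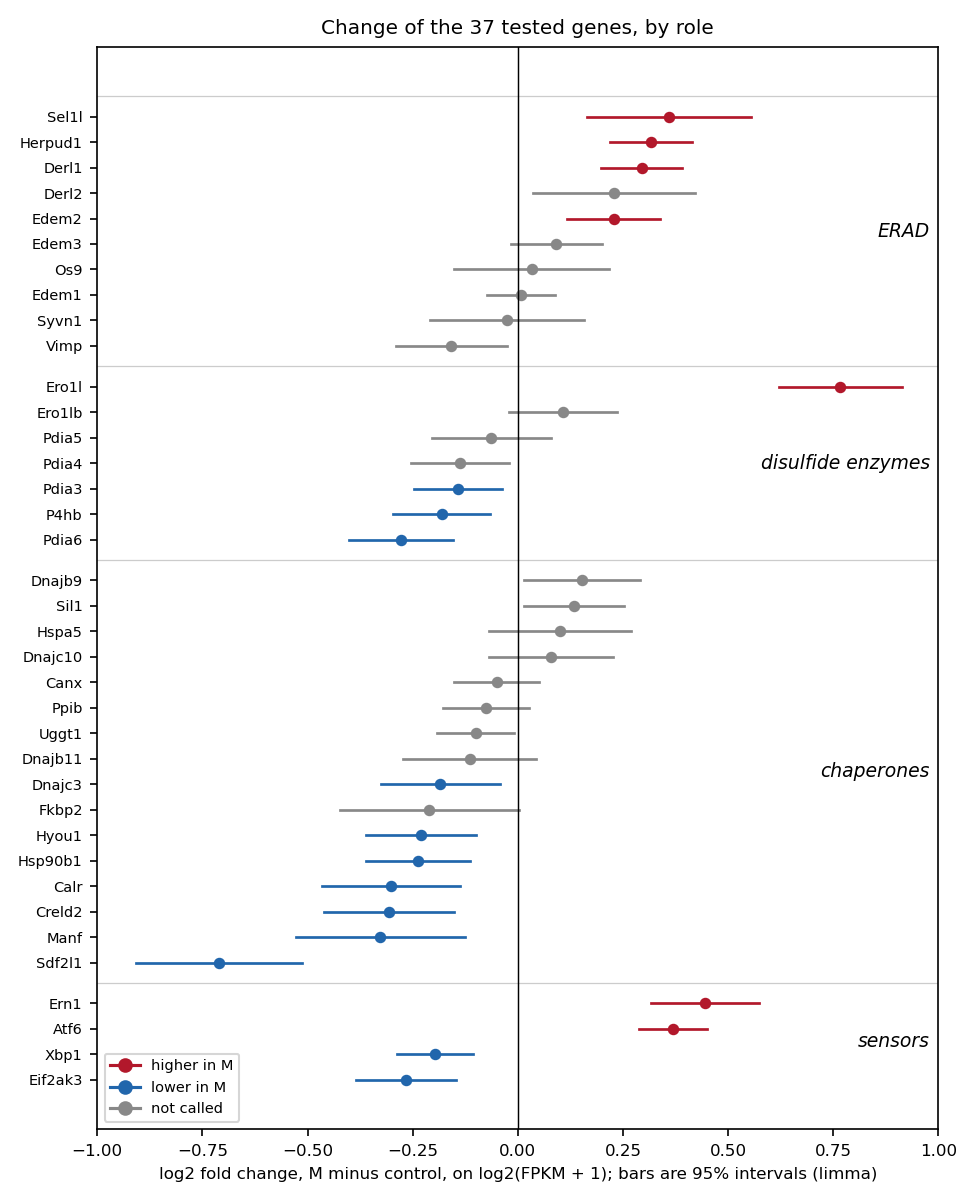
Log2 fold change (M minus control, on log2(FPKM + 1), x axis) of the 37 tested genes ordered within their roles, with 95% limma intervals as bars and colour for the call. ERAD genes lie mostly to the right of 0 and chaperones mostly to the left, with Ero1l at 0.77 and Sdf2l1 at -0.71 at the ends.

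All 4 sensors and transducers were called, and they divided evenly between the directions. Ern1, which encodes the kinase and RNase IRE1 alpha, stood at 26.7, 27.8 and 27.3 FPKM in the control libraries (always in the order 1, 2, 3) and at 34.7, 37.7 and 40.1 in M. All M libraries lay above all control libraries, and the gene rose by 37.6% (log2 fold change 0.44 ± 0.0555 SE, limma adjusted p = 4.91e-04). Atf6, the membrane-bound transcription factor that is released by proteolysis, was at 46.8, 46.3 and 46.8 FPKM in control and 58.9, 61.0 and 61.6 in M. Its control libraries were nearly level and again all below M, with a rise of 29.7% (0.37 ± 0.0349, adjusted p = 1.19e-04). Eif2ak3, which encodes the translation-braking kinase PERK, went the other way, with 11.1, 10.4 and 11.0 FPKM in control and 8.60, 9.14 and 8.73 in M. The M libraries were all lower, and the gene fell by 0.27 on the log2 scale (adjusted p = 0.00419). Xbp1, the transcription factor whose mRNA IRE1 splices, was at 99.1, 102 and 99.0 FPKM in control and 88.9, 83.7 and 88.8 in M, without overlap (-0.20 ± 0.0388, adjusted p = 0.00470). Spliced and unspliced Xbp1 mRNA were not told apart here. The ratio of Ern1 to Eif2ak3 FPKM was 2.40, 2.67 and 2.49 in control and 4.04, 4.12 and 4.59 in M, a pair chosen after the values were seen. The 4 sensor calls held in each of the 14 alternative settings tried.

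Among the chaperones Sdf2l1, which works with the ER HSP40 cofactors, fell most. It had 36.9, 36.5 and 41.1 FPKM in control and 26.0, 22.0 and 21.0 in M. Even the highest M library was far below the lowest control, and the mean fell by 39.7% (log2 fold change -0.71 ± 0.0843 SE, adjusted p = 4.52e-04). Those cofactors serve BiP, the ER HSP70, whose gene Hspa5 was at 222, 224 and 262 FPKM in control and 248, 243 and 268 in M. Those groups overlapped, since control 3 was above M 1 and M 2, and Hspa5 was not called (0.10, 95% interval -0.069 to 0.27, adjusted p = 0.300). Without control 3 the log2 fold change of Hspa5 was 0.18 with an adjusted p of 0.0451. The ratio of Sdf2l1 to Hspa5 FPKM was 0.157 to 0.166 in control and 0.0783 to 0.105 in M, also a pair chosen after the values were seen.

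Hsp90b1, the ER HSP90 (GRP94) that folds integrins and Toll-like receptors, stood at 189, 183 and 209 FPKM in control and 164, 165 and 163 in M. The M libraries were tightly grouped below all controls (-0.24 ± 0.0535, adjusted p = 0.00899). Calr, the soluble lectin calreticulin, had 161, 148 and 176 FPKM in control and 137, 133 and 122 in M, and also did not overlap (-0.30 ± 0.0703, adjusted p = 0.0103). Its membrane-bound counterpart Canx (calnexin) had 206, 205 and 220.2 FPKM in control and 206, 198 and 206 in M. The Canx groups overlapped and the interval of its change was -0.15 to 0.051 (adjusted p = 0.384). Uggt1, the folding sensor that returns glycoproteins to both lectins, was at 24.7, 26.0 and 25.4 FPKM in control and 23.2, 24.0 and 23.6 in M, lower in every M library but not called (-0.10, adjusted p = 0.0761).

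Creld2, an ER protein known to be induced by ER stress, had 16.5, 14.7 and 15.2 FPKM in control and 12.5, 13.1 and 11.3 in M, without overlap (-0.31 ± 0.0669, adjusted p = 0.00772). Hyou1, the large HSP70-type nucleotide exchange factor for BiP, had 74.9, 80.3 and 85.0 FPKM in control and 71.8, 66.1 and 66.3 in M (-0.23, adjusted p = 0.0128). Its groups were apart by a small gap, and with its most abundant transcript alone the adjusted p was 0.0793. Manf, a secreted BiP cofactor, had 50.6, 39.3 and 47.0 FPKM in control and 36.2, 35.3 and 36.5 in M (-0.33, adjusted p = 0.0184). The high value of control 1 came from transcript ENSMUST00000159620, given as 14.0 FPKM there and 0.0872 and 0.159 in control 2 and 3, while the most abundant Manf transcript (ENSMUST00000159283) fell from 30.6 ± 0.847 to 21.5 ± 2.31 FPKM (SD, n = 3). Dnajc3, the co-chaperone P58IPK that restrains PERK, had 15.5, 17.6 and 18.0 FPKM in control and 14.7, 14.7 and 15.2 in M (-0.18, adjusted p = 0.0418). The groups of Dnajc3 were separated by a narrow margin. Leaving out control 2 (adjusted p = 0.113), control 3 (0.124), M 1 (0.0955), M 2 (0.105) or M 3 (0.0722) ended its call, as happened to Manf without control 3 (0.0607), M 1 (0.0519), M 2 (0.0592) or M 3 (0.0519).

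The other chaperones were not called. Sil1, the second exchange factor for BiP, went from 16.4 ± 0.539 to 18.1 ± 0.948 FPKM (adjusted p = 0.0696, and 0.0392 without M 1). Dnajb9 (ERdj4), a cofactor that holds IRE1 in check, went from 11.4 ± 0.617 to 12.8 ± 0.708 (0.0714), and in both genes M lay above control in every library. The reductase cofactor Dnajc10 (ERdj5) had 33.3 ± 2.17 and 35.2 ± 2.31 FPKM (0.353), and the cofactor Dnajb11 (ERdj3) 32.2 ± 2.65 and 29.7 ± 1.76 (0.210). The prolyl isomerases had 204 ± 7.35 and 194 ± 5.21 FPKM for Ppib (0.198) and 25.5 ± 3.35 and 21.8 ± 1.27 for Fkbp2 (0.0993, and 0.0395 without control 2). Across the 16 chaperones, the highest of the 3 control libraries was control 3 in 13 cases, and it was so in 7 of 10 ERAD genes, 4 of 7 disulfide enzymes, 0 of 4 sensors and 24 of all 37, against 32.6% of all genes tested. Without control 3, 5 chaperones were called lower and 1 (Hspa5) higher.

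**Figure D2:**
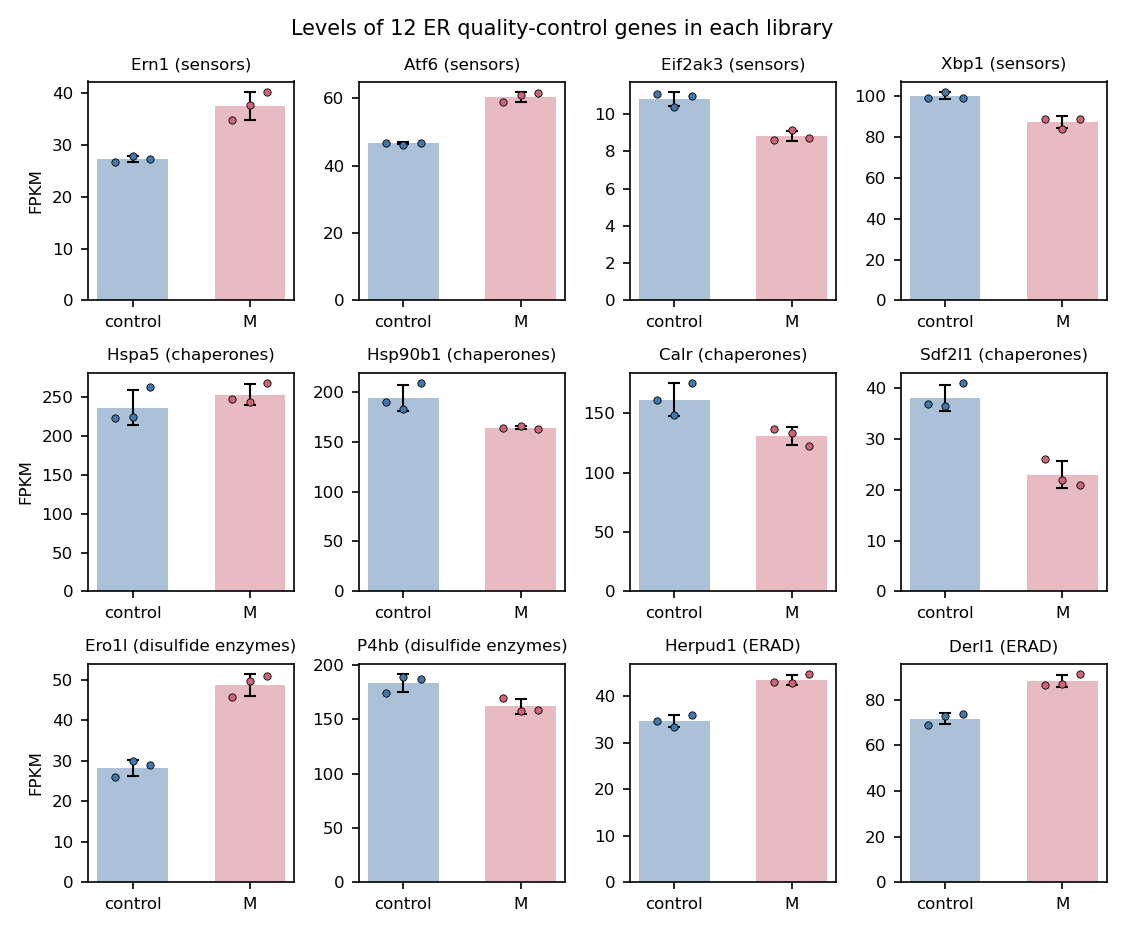
FPKM (y axis, from 0) of 12 genes in control and M; points are the 3 libraries of each group, bars the mean and whiskers the SD. Ern1, Atf6, Ero1l, Herpud1 and Derl1 lie higher in every M library, Eif2ak3, Xbp1, Hsp90b1, Calr, Sdf2l1 and P4hb lower, and Hspa5 overlaps.

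Of the 7 disulfide enzymes, the oxidase Ero1l was called higher, the isomerases Pdia6, P4hb and Pdia3 were called lower, and Pdia4, Pdia5 and Ero1lb were not called. Ero1l (ERO1 alpha), which passes electrons from the isomerases to oxygen and is also known as a hypoxia-inducible gene, had 26.0, 29.8 and 28.9 FPKM in control and 45.6, 49.6 and 50.8 in M. The gap between the groups was wide, and the mean rose by 72.5% (log2 fold change 0.77 ± 0.0629 SE, adjusted p = 6.06e-05). The second oxidase, Ero1lb (ERO1 beta), had 11.5, 12.2 and 10.8 FPKM in control and 12.7, 11.99 and 12.7 in M. Its groups overlapped and it was not called (0.11, interval -0.021 to 0.24, adjusted p = 0.155). The ratio of Ero1l to Ero1lb FPKM was 2.25 to 2.66 in control and 3.59 to 4.14 in M, again a pair chosen after the values were seen.

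Pdia6 (P5), an isomerase that also acts on IRE1, had 77.8, 78.7 and 84.6 FPKM in control and 70.6, 64.3 and 63.7 in M, without overlap (-0.28 ± 0.0532, adjusted p = 0.00421). P4hb, the classical disulfide isomerase PDI and the most abundant of this role, had 174, 189 and 187 FPKM in control and 169, 157 and 158 in M (-0.18, adjusted p = 0.0203). Pdia3 (ERp57), the partner of calnexin and calreticulin, had 123, 126 and 135 FPKM in control and 118, 117 and 113 in M (-0.14, adjusted p = 0.0354). For both, all M libraries were lower by a small margin. P4hb missed the threshold when control 2 (0.0532), control 3 (0.0612), M 2 (0.0777) or M 3 (0.0664) was left out (adjusted p in brackets), and Pdia3 without control 3 (0.0960), M 1 (0.0547), M 2 (0.0835) or M 3 (0.106). Over the 14 alternative settings, the call was lost in 5 for P4hb and in 8 for Pdia3. Beyond left-out libraries, these were a replicate block for P4hb (0.0506) and Pdia3 (0.0669). Pdia3 also lost it with no filter (0.052), limma without trend and robust (0.0571) and the most abundant transcript alone (0.0553). Only Pdia6 was called lower in this role when control 3, M 2 or M 3 was left out. Pdia4 (ERp72) had 39.6, 40.7 and 43.8 FPKM in control and 38.2, 35.8 and 38.4 in M, lower in every M library but not called (-0.14, adjusted p = 0.0593). Pdia5, the least abundant isomerase, had 4.25, 4.24 and 4.42 FPKM in control and 4.08, 3.90 and 4.25 in M, and its groups overlapped (-0.064, adjusted p = 0.433).

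Of the 10 ERAD genes tested, 4 (40.0%) were called, all of them higher in M, beside 43.1% of all genes tested called in either direction. Herpud1, the ubiquitin-like membrane protein that organises the HRD1 complex, had 34.7, 33.5 and 36.0 FPKM in control and 43.0, 42.8 and 44.8 in M. The groups were well apart, with a rise of 25.2% (log2 fold change 0.32 ± 0.0421 SE, adjusted p = 6.78e-04). Derl1, a derlin of the channel through which proteins leave the ER, had 68.9, 72.8 and 73.6 FPKM in control and 86.6, 86.8 and 91.3 in M, a rise of 23.0% without overlap (0.29 ± 0.0415, adjusted p = 9.07e-04). Edem2, which trims mannose from misfolded glycoproteins, had 20.6, 21.0 and 19.4 FPKM in control and 24.98, 23.8 and 23.2 in M, also without overlap (0.23 ± 0.0477, adjusted p = 0.00627). Sel1l, the adaptor that holds the ligase HRD1, had 33.5, 32.5 and 35.2 FPKM in control and 38.04, 45.4 and 48.0 in M. All M libraries were higher, with M 1 the closest to control (0.36 ± 0.0832, adjusted p = 0.0108), and with the most abundant transcript alone the adjusted p was 0.0895.

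Syvn1, which encodes HRD1 itself, had 14.5, 12.6 and 14.7 FPKM in control and 15.1, 13.1 and 12.9 in M, and its groups overlapped (-0.026, interval -0.21 to 0.16, adjusted p = 0.817). Edem1, the most abundant ERAD gene here, had 101, 105 and 102 FPKM in control and 102, 104 and 103 in M. Its groups overlapped and the interval of its change was -0.074 to 0.090 (adjusted p = 0.877). Edem3 went from 14.998 ± 0.361 to 16.1 ± 0.618 FPKM (0.147) and the lectin Os9 from 24.4 ± 1.24 to 25.01 ± 2.68 (0.767). Vimp (selenoprotein S, which recruits the p97 ATPase) went from 24.9 ± 1.67 to 22.2 ± 0.849 FPKM, with M below control in every library (0.0569, and 0.0296 without control 2). Derl2 had 14.3, 15.6 and 18.4 FPKM in control and 18.7, 19.0 and 19.1 in M. It was not called as a gene (0.23, adjusted p = 0.0570), but it was without control 3 (0.32, adjusted p = 0.00455). Derl3, the third derlin, was listed at 0 in 5 libraries and at 0.0476 FPKM in control 2, so it was not tested.

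Summed over the 11 ERAD genes, the level was 351, 355 and 366 FPKM in control and 390, 399 and 407 in M. The 16 chaperones summed to 1319, 1286 and 1437 FPKM in control and 1257, 1224 and 1240.3 in M. The ratio of the ERAD to the chaperone sum was therefore 0.266, 0.276 and 0.255 in control and 0.310, 0.326 and 0.328 in M, without overlap, and is given as a description with no test because the genes were chosen with earlier results of these data known. All 38 genes together made up 0.593% to 0.636% of the summed FPKM in control and 0.593% to 0.609% in M, so the groups overlapped in the total share. By role, the share of chaperones was 0.338% to 0.368% in control and 0.322% to 0.330% in M, and that of ERAD genes 0.0902% to 0.0937% and 0.102% to 0.108%, neither with overlap.

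**Figure D3:**
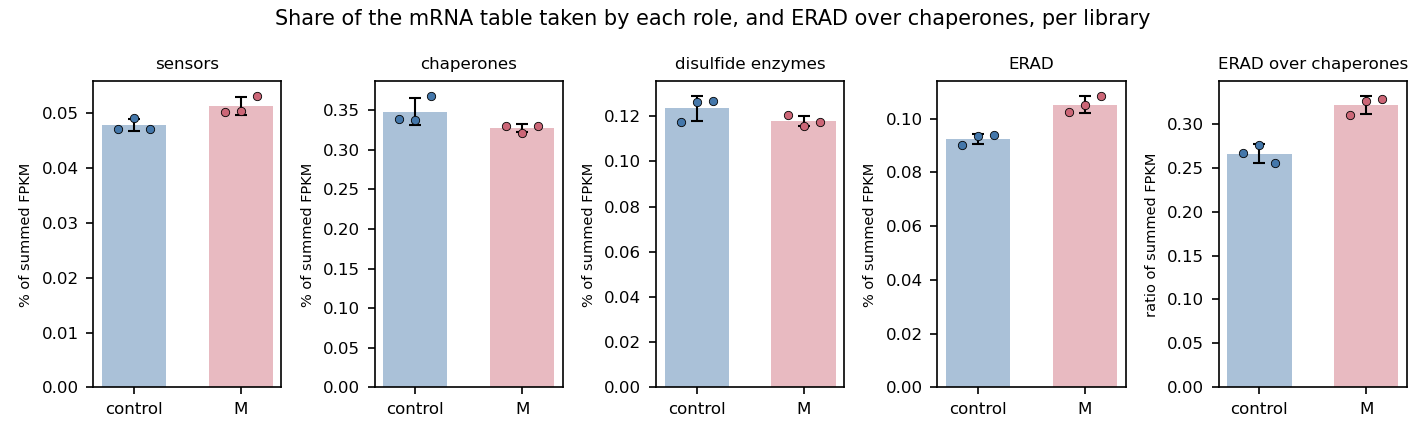
Percent of summed FPKM taken by each role, and the ratio of summed ERAD to summed chaperone FPKM, in control and M (y axes from 0; points are libraries, bars means, whiskers SD, n = 3). The ERAD share and the ratio, 0.255 to 0.276 in control and 0.310 to 0.328 in M, do not overlap between the groups.

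Set against the promoter elements printed above, the genes with an ERSE gave the following calls. Of the 10, 9 were tested, and 5 were called lower (Hsp90b1, Calr, Creld2, Dnajc3 and Pdia6), 0 higher and 4 not at all (Hspa5, Canx, Ero1lb and Syvn1), where 21.9% of all genes tested were called lower and 21.2% higher. Of the 4, Hspa5 and Ero1lb had higher means in M (log2 fold changes 0.10 and 0.11), and Hspa5 was called higher without control 3 and with quantile normalization (adjusted p = 0.0451 and 0.0278). The call of Dnajc3 was lost in 9 of the 14 alternative settings. Their median log2 fold change was -0.18. Of the 21 tested genes with a promoter entry but neither element, 4 were called higher and 5 lower, with a median of -0.064. Sdf2l1, which fell most, is among them. Of the tested genes with an ERSE, Hsp90b1, Calr, Creld2, Dnajc3, Hspa5 and Canx are chaperones and Pdia6, Ero1lb and Syvn1 are not, so role and element overlap in part. Among chaperones with a promoter entry but neither element, Sdf2l1 was called lower. Dnajb9, Dnajc10, Uggt1, Ppib and Fkbp2 were not called. The parts of role and element in the calls were not tested, and the genes are few. Of the genes without a promoter entry, Hyou1 and Manf were called lower, Atf6 and Derl1 higher, and Sil1 was not called. Herpud1, with its ERSE-II 52 bases before the start, rose, and Dnajb11, whose ERSE-II begins 8 bases into the transcript, was not called. Outside the list, 27 genes had an ERSE, of which 4 were tested and 1 was called, Acacb (higher, 1.09 to 2.06 FPKM, adjusted p = 0.00420). Of 6 tested genes outside the list with an ERSE-II, 1 was called, Nucb1 (higher, 0.22, adjusted p = 0.00500). A match of letters shows neither binding nor use of the site.

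**Figure D4:**
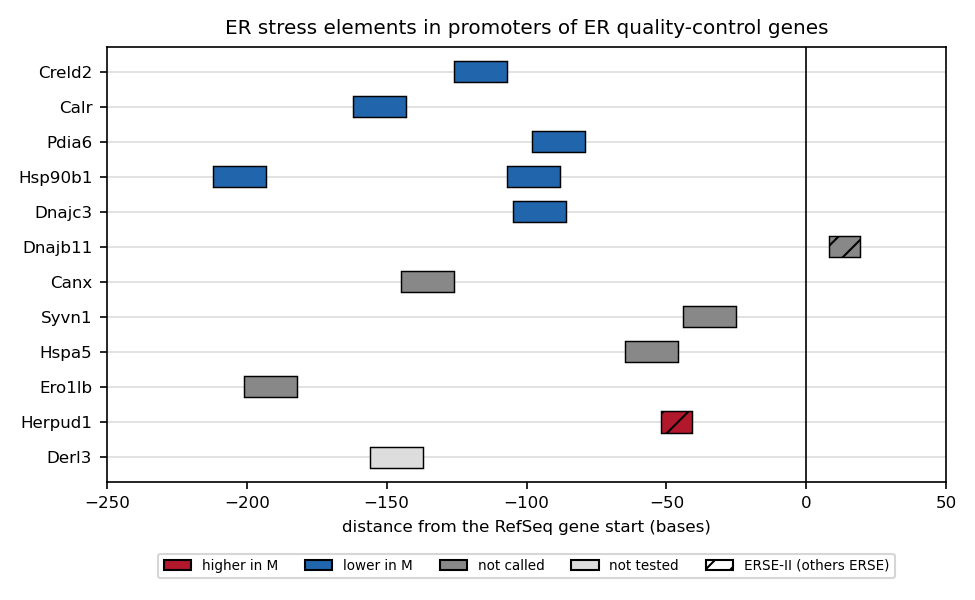
Position of each ERSE and ERSE-II match relative to the RefSeq gene start (x axis, bases; hatched boxes are ERSE-II) in the 12 genes that hold one, coloured by the call in M. Genes called lower, such as Creld2 and Calr, and genes not called, such as Hspa5, both carry the element upstream of the start.

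At the level of single transcripts, 73 entries belonged to the 38 genes and 58 averaged at least 1 FPKM. Of these, 15 (25.9%) were called, 8 higher and 7 lower, where 18.7% of all 16851 transcripts tested were called (9.18% higher, 9.56% lower). Of the 13 genes with more than 1 tested transcript, 0 had transcripts called in opposite directions. None had more than 1 called transcript, so this count was bound to be 0 and does not show that transcripts agree. In Ern1, Xbp1, Herpud1 and Sel1l every tested transcript had the sign of the called one. In Manf, ENSMUST00000069036 (0.66, not called) went against ENSMUST00000159283 (-0.50, called). In Derl2, ENSMUST00000171041 (-0.54, not called) went against ENSMUST00000143850 (0.39, called). The largest called changes per role were those of the main Ern1 transcript ENSMUST00000001059 (19.1 ± 0.373 to 27.0 ± 1.60 FPKM, adjusted p = 0.00288), the single transcripts of Sdf2l1 and Ero1l, and Derl2 transcript ENSMUST00000143850 (12.8 ± 0.362 to 17.1 ± 1.27 FPKM, log2 fold change 0.39, adjusted p = 0.0106). The Derl2 sum of control 3 held 5.44 FPKM of another transcript, ENSMUST00000171041, against 1.28 and 1.32 in control 1 and 2. FPKM of overlapping transcripts are estimates, as the Vimp transcript ENSMUST00000206575 shows, given as 7.14 and 9.60 FPKM in M 1 and M 2 and 0 in M 3 while the gene sums were 22.3, 21.3 and 23.0.

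Other genes of the secretory route, listed by role, were called in 52 of 161 cases (32.3%), 38 higher and 14 lower, below the 43.1% of all genes tested (21.2% higher, 21.9% lower), against which the counts of each list below are to be read. Of the other ERAD and extraction genes, 13 of 36 were called higher and 3 lower (median 0.11). Erlin1, which targets the IP3 receptor for ERAD (32.6 ± 1.24 to 43.6 ± 3.84 FPKM, adjusted p = 0.00187), the ligase Rnf185 (0.32, 0.00225) and the ERAD factor Jkamp (0.33, 0.00357) rose. Among other disulfide and prolyl isomerase enzymes, 8 of 27 were higher and 2 lower. There, Erp29, an escort protein without an active thioredoxin site, fell from 59.6 ± 4.92 to 36.4 ± 2.76 FPKM (-0.70 ± 0.0748, adjusted p = 2.55e-04), while the thioredoxin-like Txndc12 (0.30, 5.50e-04) and Tmx3 (0.38, 6.80e-04) rose. Of the other transducers, 6 of 15 were higher and 1 lower, led by the death effector Bax (0.44, 1.80e-04), the ER membrane protein Tmbim6 (0.51, 0.00212) and the ATF6-like factor Creb3 (0.37, 0.00226).

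For entry and export, the translocon and signal peptidase list had 2 of 24 higher (Spcs1 and Srp14) and 1 lower (Ssr1). The list of oligosaccharyltransferase and glycan trimming had 2 of 15 higher and 2 lower, with glucosidase I (Mogs) at -0.28 (adjusted p = 0.00128), Man1a2 at 0.21 (0.00358) and Prkcsh at 0.14 (0.0122). COPII export and cargo genes had 3 of 25 higher and 1 lower, with the cargo receptor subunit Mcfd2 at 0.59 (0.00238), the coat subunit Sec31a at -0.46 (0.00402) and Surf4 at 0.13 (0.0298). ER-phagy and ER shape genes had 4 of 19 higher and 4 lower, among them the sheet-forming Ckap4 (-0.41, 6.56e-04) and the ER-phagy receptors Fam134b (0.24, 0.00248) and Tex264 (0.30, 0.00792).

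Beside the ER genes, 21 of 23 tested genes of the integrated stress response, the ATF4 programme that PERK and other kinases feed, were called higher and 1 lower, with a median of 0.52. Slc7a11, Slc3a2 and Chac1 had the smallest adjusted p there (5.43e-09, 1.77e-06 and 4.07e-06), and Atf4 itself, named after its values were seen, went from 163 ± 11.3 to 227 ± 15.3 FPKM. Cytosolic chaperones were called in 4 of 28 cases higher and 4 lower (median 0.0072), with the constitutive HSP70 gene Hspa8 at -0.52 (0.00132), Dnaja2 at 0.22 (0.00160) and Dnajb1 at -0.37 (0.00186). The difference between these lists and the 38 genes was not tested.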

How the data were processed

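Total RNA of mouse macrophages was sequenced in 3 control and 3 M libraries, with a TruSeq RNA kit per the labels' protocols. The authors deposited FPKM per transcript, 1 column per library, and mm9 is the genome build that the submitters' processing notes name. The sources used here name no aligner, quantifier, strand setting or annotation release, so reads of overlapping or antisense genes cannot be told apart. The deposited lncRNA table was not used.

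Transcripts were summed per symbol and the 10390 genes averaging 1 FPKM or more across the 6 libraries were fitted as log2(FPKM + 1) with limma 3.58.1 in R 4.3.3 (two-sided eBayes test of group, trend and robust on, no other covariate, Benjamini-Hochberg over all genes). Transcripts were fitted alike. Fold changes on this scale understate those of low genes. The fits were tested on simulated independent normal values with known changes, which cannot show whether the libraries here are independent replicates.

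The 38 genes, the other lists and the alternatives were chosen with earlier results of these data known. Values per library are given for up to 6 called genes per role (lowest adjusted p first), the 2 of highest FPKM, and genes fixed for their role, and for some others beside them. In other lists, up to 3 called genes with the smallest adjusted p are named. Promoters are from RefSeq, build GRCm38.p6, searched in Python 3.11.15.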

Additional observations from a re-analysis of the deposited data

How the results depend on the processing

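The alternatives were pseudocounts of 0.1 and 5, no filter, median-of-ratios scaling, quantile normalization, limma without trend and robust, the most abundant transcript only, a replicate block, and each library left out. Over the 37 tested genes and 14 alternatives, 464 of 518 values kept direction and side of the threshold, 28 lost the call, 13 gained one and 13 changed sign, the cause of which was not tested. All 13 belonged to uncalled genes: Canx (0.064) and Edem1 (-0.036) with quantile normalization, Syvn1 (0.0015) there too, Fkbp2 (0.0025), Os9 (-0.15) and Vimp (0.14) with the most abundant transcript, and, leaving out 1 library, Syvn1 (range -0.092 to 0.013), Edem1 (-0.0049 to 0.027) and Os9 (-0.018 to 0.12). Leaving out 1 library gave 7 to 9 of the 38 genes higher and 8 to 12 lower.

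With quantile normalization 2 chaperones were higher (Hspa5 and Dnajb9), 1 ERAD gene was lower (Vimp) and the sensor median was 0.038. Leaving out 1 library gave 0 to 1 chaperone higher, 1 to 3 disulfide enzymes lower, 0 to 1 ERAD gene lower, ERAD medians of 0.13 to 0.17 and 8 to 16 other ER genes lower (9 without control 3, 8 without M 2). The ERAD median was 0.13 with a pseudocount of 5, 0.092 with no filter and 0.19 with the most abundant transcript. A transcript filter of 0.1 FPKM left 4 transcripts lower.

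Replicate numbers are shared by the groups, and the labels do not say whether same-numbered libraries share a culture or day. Deviations from the group means correlated at r = 0.066, 0.0052 and -0.035 between same-numbered libraries. Between the other pairs r was -0.070 to 0.066. With 3 libraries per group these values cannot settle whether a pairing exists. With the replicate block, 1 disulfide enzyme (Pdia6) and 1 ERAD gene (Vimp) were lower, 5 ERAD genes were higher (Derl2 added, adjusted p = 0.0463), and 4 transcripts were higher and 2 lower. FPKM give no read depth, so the precision of low genes such as Derl3 is unknown.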
